A study of Mus musculus with 10 samples.

Results

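The histone genes of cultured mouse mammary epithelial cells were examined in poly-A selected RNA. Members were chosen by symbol alone, as every listed gene whose name starts with H1f, H2ac, H2bc, H3c or H4c followed by a digit, or carries the older Hist form. The rule gave 72 of the 53167 genes in the count table, of which 12 code for H1, 19 for H2A, 17 for H2B, 12 for H3 and 12 for H4. By older symbol, 64 of them belong to the histone gene clusters. The linker histone genes H1f0, H1f7, H1f8 and H1f10 lie outside the clusters but fall under the rule, and H1f9, H1f11-ps, H2ac5-ps and H2bc24 had no match in the reference.

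All 10 libraries came from wild-type primary epithelial cells of the mouse mammary gland, grown in DMEM with 10% serum. In the BGN group, 5 libraries, biglycan protein had been added to the medium at 100 ng/mL, and in the Control group, 5 libraries, no biglycan was added. Biglycan is a small proteoglycan of the extracellular matrix. The labels give no duration, no age of the animals, and do not state if the replicates are different animals or dishes. The p-values therefore rest on a spread among libraries that could be technical. Each library held 18292624 to 21820560 counts. Epithelial markers were high in every library, with mean values of 3640 CPM (counts scaled to library size) for Krt14, 1510 for Krt5 and 1130 for Epcam. Summed markers of fibroblasts reached 40.8 to 59.4 CPM, most of it Pdgfra with Dpt at 0, and those of myeloid cells 17.1 to 21.7 CPM, most of it Cd163 with Adgre1 at 0. Control 5 stood apart in its mitochondrial reads, which made up 1.155% of its counts and 1.802 to 2.269% of those of the remaining 9 libraries. Where leaving it out turns an estimate or adds to a count, the value without it is given beside the comparison.

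Histones package DNA into nucleosomes. A core of H2A, H2B, H3 and H4 is wrapped by DNA, and the linker histone H1 binds where the DNA enters and leaves. Most of the clustered genes are switched on with DNA replication, and their mRNAs are the best known in animal cells to end without a poly-A tail. They end instead a few bases past a conserved stem-loop, which the protein SLBP binds and the U7 small nuclear RNP helps to cleave. Some histone genes also give longer, polyadenylated transcripts, mostly described in differentiating or resting cells, and H1f0 and H1f10 make ordinary polyadenylated mRNAs. Poly-A selection, used for these libraries, retains RNA with a tail.

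The transcript ends of 68 members could be read from a GENCODE reference of the GRCm38 build, a different build from the GRCm39 that the submitters' notes name, so no positions are given. The stem-loop was searched in every annotated transcript as 6 paired bases (G with T allowed), which open with GG and close with CC, around a loop of 4 bases with T as the first base and the third. It was found in 43 of the 68. The most frequent form, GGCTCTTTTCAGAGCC, stood in 24 genes of H1, H2A, H2B and H3, and another, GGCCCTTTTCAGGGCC, in 6 genes, all of H4. For other coding genes only the last 150 bases of the longest transcript were searched, so their shares are not like the 43 of 68. There, 11 of 21834 (0.0504%) had such a stem-loop, and 180 (0.824%) had one when any loop bases were allowed. A nearer member count is the 23 of 68 whose transcripts end at most 100 bases after the stem-loop. Besides these, H4c1 holds it in the last 150 bases. Only the members were left out of the other coding genes, so further histone genes with the stem-loop may be among them. The following sequences are of transcripts that end close to the stem-loop, printed 5′ to 3′ with the stem-loop in capitals, to show how alike the ends of different classes are.
H2ac4: acaaaGGCTCTTTTCAGAGCCacccacatc
H2bc7: ccaaaGGCTCTTTTCAGAGCCacctaccct
H3c2: ccaaaGGCTCTTTTCAGAGCCacccacagt
H4c17: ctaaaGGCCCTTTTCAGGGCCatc

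These next members hold a stem-loop of the same kind, but their annotated transcripts run on past it, by 840 bases in H1f2, 1861 in H2bc6 and 330 in H4c9.
H1f2: caaaaGGCTCTTTTCAGAGCCaccactccc
H2bc6: ccaaaGGCTCTTTTCAGAGCCacccaacag
H4c9: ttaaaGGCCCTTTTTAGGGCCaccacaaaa

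A poly-A signal (AATAAA or ATTAAA, sense strand) stood in the last 50 bases of 16 of the 68 matched members (23.5%), and of 6 of the 12 that were later tested (50%). Any annotated transcript of a member was searched, and the longest of each of the 21834 other coding genes, of which 72.3% had the signal. It is printed in capitals for 4 of them, since H1f0 and H2bc21 have no stem-loop and H1f2 and H4c9 have both elements. A match describes the sequence only, and a missing element may reflect a short annotation.
H1f0: ctttaaAATAAAactggaaaggaaaaaa
H2bc21: attattAATAAAgttaccgattagtttc
H1f2: gcttctAATAAAaagcgtttagttttcatt
H4c9: gtttacATTAAAagtattctatgctaa

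Histone reads were few and came mostly from H1f0, the linker histone of differentiated cells. All 72 members together took 104315 counts, between 0.0479 and 0.0581% of a library, and H1f0 alone supplied 79.2 to 83.0% of them. The H1 genes held 91.9% of the histone counts and the H2B genes 6.63%. The H4, H2A and H3 genes held 0.842, 0.336 and 0.267%. The 64 clustered genes made up 17.6% of the histone counts. The histone counts of these libraries were thus for the larger part not of the clustered genes.

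Read number differed by annotated transcript end. The 23 members whose longest form stopped within 100 bases after the stem-loop had 432 counts in all, a median total of 17 over the 10 libraries, and none above 47 (H3c2). Their summed level lay between 1.59 and 2.78 CPM. The 20 members whose transcript ran further past the stem-loop had 11654 counts, a median total of 59.5, and a sum of 54.2 to 68.9 CPM. H1f2 alone supplied 9534 of these counts, the other 19 had 2120, and H3c14, which runs 1167 bases past its stem-loop and has a poly-A signal, was at 0. Of the 25 without the stem-loop in their annotated transcript, the 7 with a transcript of at least 1000 bases, H1f0 among them, had 91961 counts. The 18 with a shorter one had 189. These 18 include annotations as short as 312 bases (H4c12) and 381 bases (H2bc15), which may lack the transcript end. In such members a missing stem-loop or poly-A signal may reflect the annotation. By length alone, the 19 members with transcripts of at least 1000 bases held 98.5% of the counts and the 49 shorter ones 1.46%. By poly-A signal, the 16 members with it held 93.8% and the 52 without it 6.08%, with H2bc4 the main one of these at 4809 counts. H1f0, with 84647 counts, carries much of these shares. By transcript end, the members without the stem-loop held 88.3% of the histone counts and those running past it 11.2%. With H1f0 left out these shares were 38.1 and 59.3%, and the members ending at the stem-loop held 2.2%. Of the 59.3%, the 19 members other than H1f2 held 10.8%. Of the 19668 histone counts without H1f0, the remaining 18 long transcripts held 91.9% and the short ones 7.72%. The 15 members with the signal held 67.4% of them and the members without the signal 32.2%. H1f2 alone supplied 9534 of the 13250 counts with the signal, and the 52 members without the signal had 6339. With H1f2 left out as well, the members with the signal held fewer counts than those without it.

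**Figure D1:**
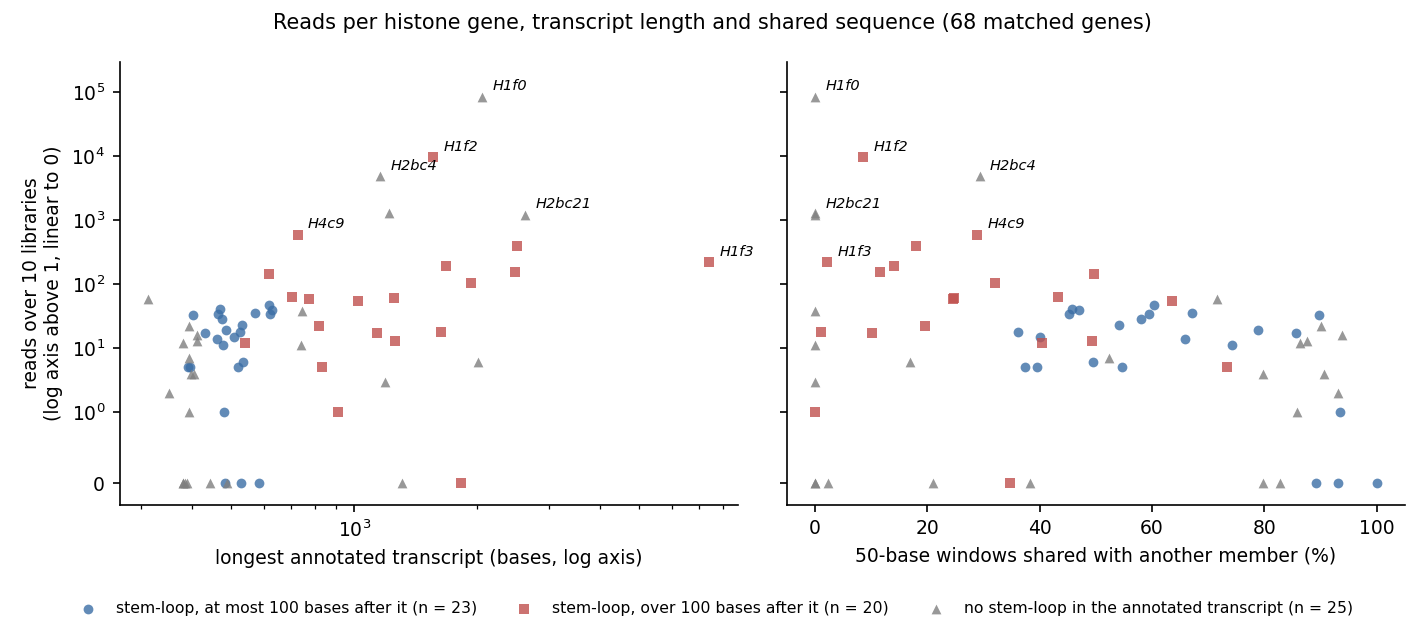
Each point is one of the 68 matched histone genes. The vertical axis is its total count over the 10 libraries (log axis above 1, linear down to 0). The horizontal axis is the longest annotated transcript in bases (left, log axis) or the percentage of its 50-base windows found in another member (right). Colours and shapes give the annotated transcript end; no gene that ends at the stem-loop (blue) exceeds 47 counts, and H1f0 has 84647.

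Shared sequence moved with read number as well. Of the matched members, 29 had at least 50% of their 50-base windows in another member, and these had 468 counts in all with a highest total of 59 (H4c12). The other 39 held 99.5% of the histone counts, and 97.2% when H1f0 is left out. H1f0, H1f10 and H2bc21 shared no window, while H3c2, with 47 counts, shared 60.4% and H4c17, with 33, shared 89.8%. How the authors' counting treated reads that map to several places is not given in the sources used here, so low counts of near-identical genes are uncertain. The parts of transcript end, length and shared sequence in these counts cannot be told apart, since the members that end at the stem-loop are also short and share 36.2 to 100% of their windows.

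A count of 0 in every library was found for 11 members. They were the spermatid linker gene H1f7, the testis genes H2ac1 and H2bc1, and H2ac18, H2ac19, H2ac21, H2ac24, H2bc13, H2bc18, H3c13 and H3c14. With 196686029 reads in all, a count of 0 allows a level of up to 0.0153 CPM (3 counts over the 10 libraries, counting error only). The limit holds only where reads could be assigned to the gene. H2ac19, H2ac24 and H3c13 share 100, 93.1 and 79.7% of their windows with other members. A further 16 members had totals of 1 to 9 and 33 had totals of 10 to 99. Each library had a count for 40 to 46 of the 72 genes.

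Among the core histone classes, H3 was the only one with no member in the test. Its median total per gene was 14.5, against 4 for H2A, 18 for H2B and 20 for H4. H3c4 had 6, 7, 1, 3 and 9 counts in BGN 1 to 5 and 8, 5, 9, 9 and 4 in Control 1 to 5. H3c2 had 14, 1, 3, 4 and 1 counts in BGN and 6, 6, 3, 5 and 4 in Control. Single libraries thus varied between 1 and 14 reads for H3c4 and H3c2, in both directions between the groups. The other leading H3 genes, H3c15, H3c3 and H3c8, had totals of 55, 40 and 23. H3c15 was at 0 in BGN 2 and H3c8 at 0 in BGN 3. In H2A, H2ac8 led the genes outside the test with 4 to 10 counts per library, a total of 64, followed by H2ac7 with 35, H2ac4 with 29 and H2ac13 with 22. In H4, they were H4c12 (59), H4c11 (58), H4c8 (41) and H4c17 (33).

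The filter on low counts left 12 members: H1f0, H1f2, H1f3, H1f4 and H1f10, the H2B genes H2bc4, H2bc6, H2bc8, H2bc9 and H2bc21, the H2A gene H2ac6, and the H4 gene H4c9. They held 99.0% of the histone counts. None of the 23 genes that end at the stem-loop was among them, and 8 of the 20 that run past it were. Just inside the filter were H1f4, H2bc8 and H2ac6, with means of 10.3, 14.4 and 15.6 counts per library, and just outside it H2ac8, H3c4 and H4c12, with 6.4, 6.1 and 5.9.

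The linker histone genes came first. H1f0 stood at 427, 417, 445, 424 and 377 CPM in BGN 1 to 5 and at 473, 455, 456, 409 and 431 CPM in Control 1 to 5. The groups overlapped: BGN 5 was the lowest library and Control 1 the highest. The means were 418 ± 25.1 (SD, n = 5) and 445 ± 24.8 CPM (SD, n = 5). An annotated gene on the opposite strand at H1f0, Gm49544, had 0 to 4 counts per library.

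H1f2, the clustered linker gene with the most reads, stood at 47.9, 44.6, 47.5, 55.2 and 46.4 CPM in BGN and at 50.2, 48.4, 45.7, 41.8 and 57.8 CPM in Control. Here the lowest and the highest library were both of the Control group. H1f10, a linker gene outside the clusters, ranged from 5.69 to 6.84 CPM in BGN and from 4.94 to 9.62 in Control. The highest value was again that of Control 5. H1f3 (0.595 to 1.17 CPM in BGN, 0.941 to 1.55 in Control) and H1f4 (0.356 to 0.843 and 0.273 to 0.585) were near the limit of what the counts resolve. H1f4 shares 32% of its windows and overlaps H2bc6 on the same strand in the reference, so reads of these genes may not be separable.

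Of the core histone genes, H2bc4 had the most reads. It stood at 23.1, 23.8, 25.1, 26.7 and 25.9 CPM in BGN and at 29.2, 21.3, 22.9, 23.4 and 23.6 CPM in Control. All BGN values lay within the Control range. H2bc21, an H2B gene whose transcripts are known to be polyadenylated in differentiated cells, stood at 4.46, 6.08, 6.05, 6.05 and 5.92 CPM in BGN and at 7.65, 7.43, 6.6, 6.62 and 5.27 CPM in Control. In it, 4 of the 5 Control libraries were above every BGN library, and Control 5 was below 4 of them. H4c9, the only H4 gene in the test, ranged from 2.19 to 3.67 CPM in BGN and from 1.83 to 4.03 in Control. H2bc6 ranged from 1.58 to 2.92 and from 1.56 to 2.9 CPM, and H2bc9 from 0.559 to 1.09 and from 0.706 to 1.6. The smallest were H2ac6, at 0.328 to 1.34 and 0.692 to 0.931 CPM, and H2bc8, at 0.446 to 0.931 and 0.235 to 1.49.

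**Figure D2:**
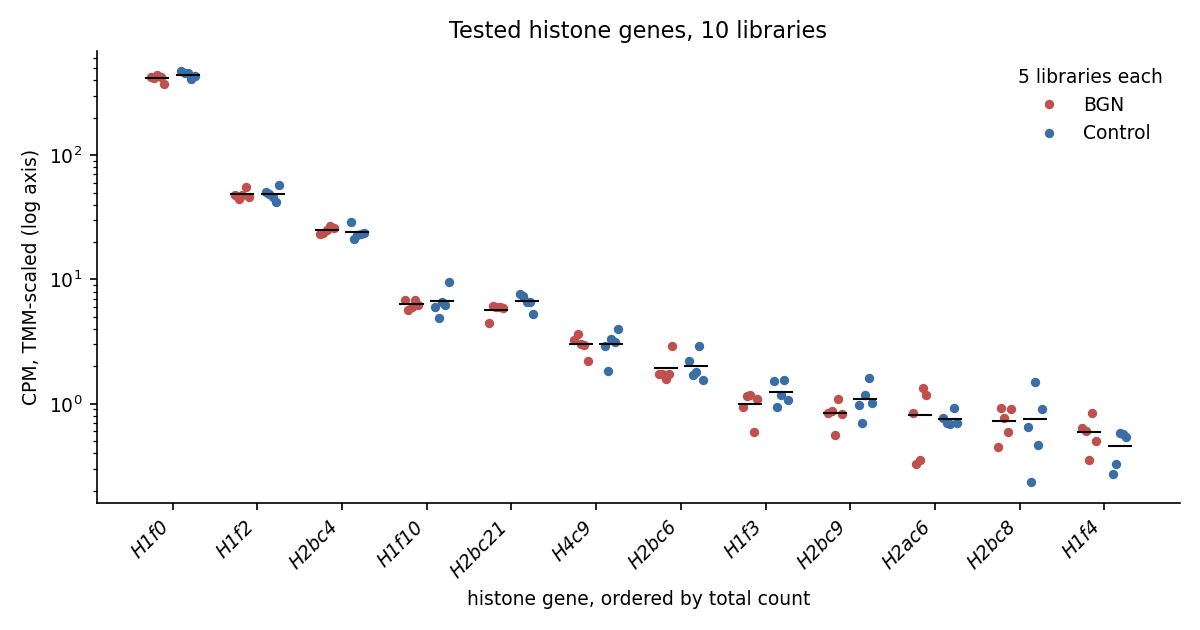
Level of the 12 tested histone genes in each library, in TMM-scaled CPM on a log axis; each point is a library, red for BGN and blue for Control, and the black line is the group mean. H1f0 lies between 377 and 473 CPM, and the groups overlap in all 12 genes.

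Per kilobase of the longest annotated transcript, H1f0 had the highest level at 210 CPM per kb (184 to 230 over the libraries), then H1f2 at 31.1 (26.8 to 37.0) and H2bc4 at 21.2 (18.4 to 25.3). The ranges of these 3 genes did not overlap each other or the next gene's. H1f10 (5.35), H4c9 (4.18), H2bc21 (2.37), H2bc8 (1.2), H4c12 (0.96), H2bc6 (0.793) and H2bc9 (0.576 CPM per kb) followed, each overlapping the next in this order. All other matched members lay at or below 0.467 CPM per kb. H1f3 has an annotated transcript of 7425 bases, which puts it at 0.151, while the value of H4c12 rests on an annotation of 312 bases. By the same measure H3f3b, at 531, and H3f3a, at 243 CPM per kb, which code for a replication-independent H3, were higher than any clustered member. Cenpa, the centromeric H3 variant, stood at 16.5, below H1f2 and H2bc4. H2az1, an H2A variant of promoters, stood at 214 and H2ax, the variant phosphorylated at DNA breaks, at 34.0.

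None of the histone genes was called between the groups. At an adjusted p under 0.05 (edgeR's quasi-likelihood test, adjusted over 14415 genes) 0 of the 12 tested members were called, where percent called over all genes was 0%. At an unadjusted p under 0.05 there were also 0 of 12, against 694 of the 14415 genes (4.81%). In 0 of 12 did the groups not overlap, against 0.728% of all genes. DESeq2 and limma-voom called 0 as well. An unadjusted p under 0.05 was reached by 2 of 12 without Control 5, H2bc21 having the smallest, where 738 of all genes reached it. With limma-voom it was reached by 1 of 12 (H2bc21, 808 of the 14415 genes), as with the replicate number as a block (H1f0, 825 of the 14415). The same held for 1 of 12 without BGN 3 (H1f0, 593), without Control 4 (H1f0, 978) and without both libraries numbered 5 (H2bc21, 865). Fits that leave out libraries pass their own filter, and their numbers of genes tested are not given here. The estimates of log2 fold change, BGN over Control, were above 0 for 3 members and below 0 for 9, with a median of -0.04; over all genes 7494 of 14415 (52.0%) were below 0 and the median was -0.004. Without Control 5 the split was 7 above and 5 below with a median of 0.05, and without Control 2 the median was -0.14. Leaving out Control 5 turned the estimates of H1f2 to 0.055, of H1f10 to 0.097, of H4c9 to 0.11 and of H2bc8 to 0.057, and moved that of H2bc21 to -0.31.

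The smallest p-values belonged to H2bc21 and H1f0. For H2bc21 the log2 fold change was -0.23, with an SE of 0.12 and a 95% interval of -0.49 to 0.018 (edgeR, adjusted p = 0.945). For H1f0 it was -0.09, with an SE of 0.047 and an interval of -0.19 to 0.0072 (edgeR, adjusted p = 0.945). Without BGN 5, the lowest library, it was -0.053. H1f2 was at -0.013 (interval -0.17 to 0.14) and H2bc4 at 0.051 (interval -0.11 to 0.21), so these well-covered genes were narrowly bounded. At lower counts the intervals widened. H2bc9 was at -0.38 (interval -0.93 to 0.17), H1f3 at -0.34 (interval -0.85 to 0.17) and H1f4 at 0.36 (interval -0.34 to 1.1). Single libraries moved them by over 1.5 times: H2bc9 was at -0.20 without Control 4, and without BGN 4 H1f3 was at -0.20 and H1f4 at 0.20. H2ac6 was at 0.12 (interval -0.58 to 0.81), and H2bc8 at -0.027 (interval -0.80 to 0.75). H1f10 at -0.07, H2bc6 at -0.053 and H4c9 at -0.015 completed the list. By class, the median log2 fold change was -0.07 over 5 H1 genes and -0.053 over 5 H2B genes. The H1 median turned to 0.055 without Control 5 and to 0.035 with limma-voom. The H2B median stayed below 0 but ranged from -0.32 without both libraries numbered 5 to -0.012 without BGN 4, with -0.25 without BGN 5.

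**Figure D3:**
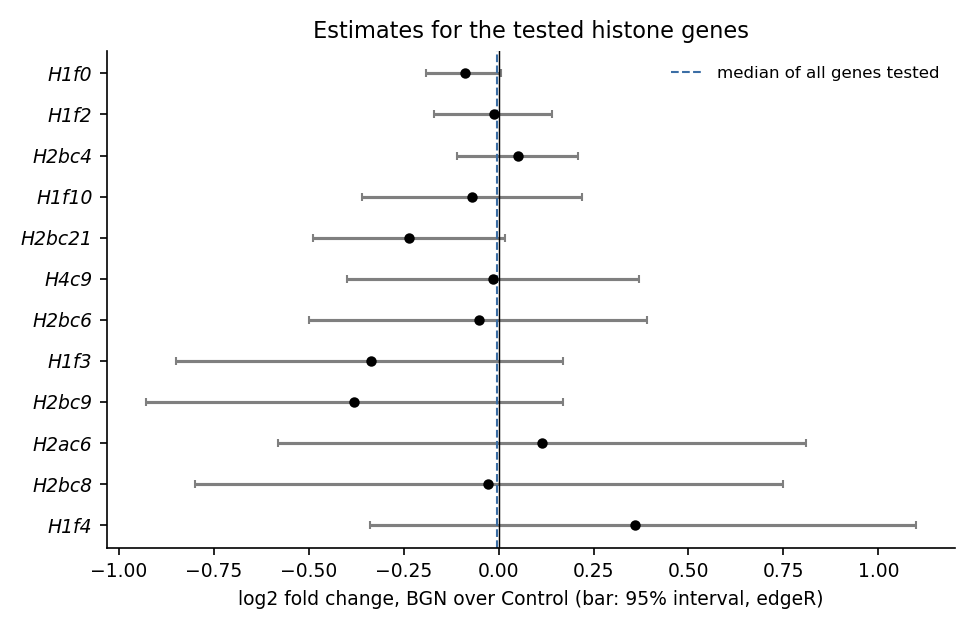
Log2 fold change of BGN over Control for the 12 tested histone genes (points) with the 95% interval of edgeR's fit (bars), ordered by total count; the dashed line is the median of all 14415 genes tested, at -0.004. Every interval includes 0, and the widest, of genes with 103 to 156 counts, span more than 1 log2 unit.

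The summed level of all members was 517 ± 25.7 CPM in BGN (SD, n = 5) and 546 ± 27.7 in Control (SD, n = 5), and the ranges, 476.4 to 542.9 and 504.1 to 581.1, overlapped. Most of that sum is H1f0. Without H1f0 it was 99.2 ± 5.48 and 101 ± 8.1 CPM. Control 5 was highest at 111.5 and Control 2 lowest at 93.4, so the extremes belonged to the same group. The 60 members outside the test summed to 5.00 ± 0.569 and 5.55 ± 0.469 CPM, and the 23 genes that end at the stem-loop to 2.11 ± 0.513 and 2.29 ± 0.276 CPM. In bulk samples, fewer cells making an RNA and less of it per cell cannot be told apart.

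Genes around the histone mRNA cycle were well covered. SLBP's gene, Slbp, stood at 66.8 ± 4.6 CPM in BGN (SD, n = 5) and 65.8 ± 3.66 in Control, and its log2 fold change was 0.021 (interval -0.089 to 0.13). Npat, the coactivator of histone gene transcription, stood at 74.4 ± 3.34 and 70.1 ± 5.25 CPM, with a log2 fold change of 0.085 (interval -0.023 to 0.19). The U7 RNP subunits Lsm10 and Lsm11 were at -0.0085 and -0.016 on the log2 scale. In the list of 32 genes for histone mRNA transcription, processing and decay, all were tested and 0 were called by edgeR; 14 estimates were above 0 and 18 below, with a median of -0.011. The smallest p was that of Ccne2, a cyclin of S-phase entry, with a log2 fold change of 0.19 (edgeR, adjusted p = 0.945). Of 19 histone chaperones and importers 0 were called, with 8 above and 11 below 0.

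Markers of dividing cells were present in every library. The replication clamp Pcna stood at 133 ± 8.72 CPM in BGN (SD, n = 5) and 134 ± 7.12 in Control, Mki67 at 543 ± 37.0 and 522 ± 44.2, and the topoisomerase Top2a at 461 ± 27.1 and 464 ± 43.3. The 43 S-phase genes summed to 2052 to 2514 CPM per library and the 23 G2 and M phase genes to 3156 to 3911, where the 23 histone genes ending at the stem-loop summed to at most 2.78. Of the S-phase genes 21 had estimates above 0 and 22 below (median -0.0057). Of the G2 and M phase genes 4 were above and 19 below (82.6%, against 52.0% of all genes), with a median of -0.026. Their sums overlapped between the groups, at 3156 to 3684 CPM in BGN and 3209 to 3911 in Control. None was called in either list, and none had an unadjusted edgeR p under 0.05. Of 25 other RNAs listed here as mostly lacking a poly-A tail, 17 were at 0 in all libraries. The list summed to 226 to 585 CPM, nearly all from the long nuclear RNAs Neat1 (308 ± 111 CPM in BGN and 305 ± 125 in Control, SD, n = 5) and Malat1 (70.4 ± 23.2 and 55.2 ± 16.1). Neat1 and Malat1 hold a poly-A signal in the last 50 bases of a reference transcript. Their reads cannot be taken as those of RNA without a tail. The other 23, short RNAs such as Rn7sk with 331 bases, summed to 0.149 to 0.967 CPM. The parts of size and of a missing tail in this were not tested.

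**Figure D4:**
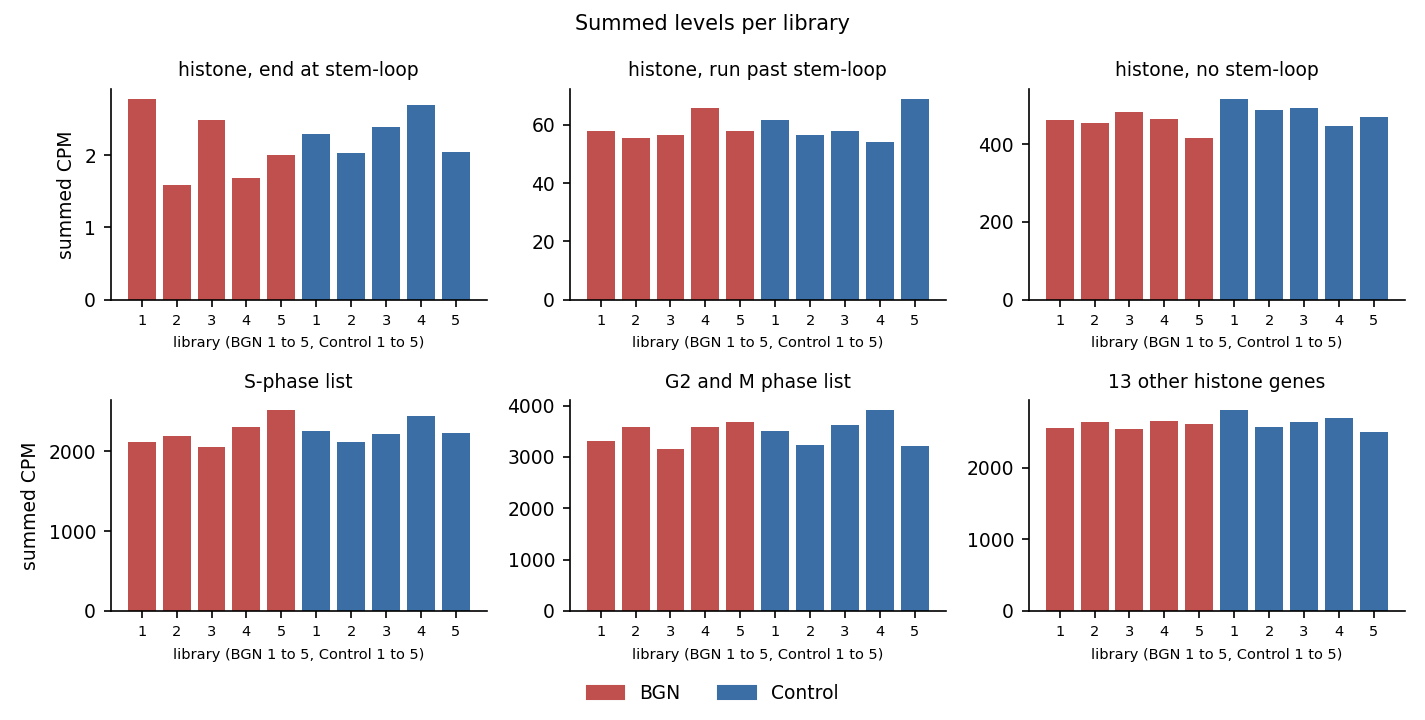
Summed CPM in each library (red BGN 1 to 5, blue Control 1 to 5), on axes that start at 0, for the histone genes by annotated transcript end and for 3 other lists. The genes that end at the stem-loop sum to 1.59 to 2.78 CPM, while the S-phase list sums to 2052 to 2514.

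Of 13 other histone genes outside the symbol rule, mostly of replication-independent variants, 10 were tested, with 0 called. Among the 10, 1 estimate was above 0 and 9 below (90.0%, against 52.0% of all genes), with a median of -0.025. Their sums overlapped between the groups, at 2540 to 2650 CPM in BGN and 2500 to 2800 in Control. In the reference 4 of the 12 matched ones, H2aw, H2ax, H2bu2 and H4f16, also hold a stem-loop, and H2bu2, H4f16 and H3f4 had totals of 21, 33 and 4 counts, as low as the members outside the test. H3f3b stood at 1320 ± 33.4 CPM in BGN (SD, n = 5) and 1350 ± 48.8 in Control, H3f3a at 690 ± 13.7 and 692 ± 37.8, H2az1 at 225 ± 18.2 and 232 ± 23.5, and H2ax at 45.9 ± 6.1 and 48.2 ± 4.05. H2aj, an H2A gene outside the clusters, was the only one of the 10 whose groups did not overlap, against 0.728% of all genes. It stood at 17.4, 19.4, 18.6, 20.8 and 19.9 CPM in BGN and at 24.4, 20.9, 21.7, 21.7 and 26.0 CPM in Control. Its log2 fold change was -0.26 (SE 0.074, interval -0.41 to -0.10), and it did not pass the adjustment over all genes (edgeR, adjusted p = 0.945).

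The spread between libraries was larger than counting error alone for most tested members. The variance of the scaled counts divided by their mean, which is near 1 where only counting error acts, was 1.08 (H1f4) to 34.2 (H1f0) among them, with a median of 2.75 and 9 of the 12 above 2. Among the 33 members outside the test with a mean of at least 1 count it was 0.706 to 3.18, with a median of 1.64, the highest being H1f5. The biological coefficient of variation in edgeR's fit was 5.95% for H1f0, 7.98% for H1f2 and 27.5% for H2bc8. In 7 of the 12 it lay above the middle 50% of genes of like mean count, namely H1f2, H1f10, H2bc4, H2bc6, H2bc8, H2ac6 and H4c9, and in the other 5 within it.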

How the data were processed

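Deposited values were raw whole-number counts per gene symbol, 1 column per sample. Per the labels' protocols, TRIzol extracts were cleared of DNA, and a NEBNext Ultra kit was used for the libraries after poly-A selection. Reads were handled with HISAT2 2.2.1 and cutadapt 1.9.1, besides HTSeq, FastQC and DESeq2, on the build GRCm39, per the submitters' processing notes. Annotation release, strand setting and treatment of reads that map to several places: not given in the sources used here.

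Counts were scaled by TMM, filtered with filterByExpr and tested with edgeR 4.0.16 (robust quasi-likelihood test, R 4.3.3; BGN against Control, no covariate), with Benjamini-Hochberg adjustment over 14415 of 26531 genes with a count. Scripts were tested on simulated data. DESeq2 1.42.0, limma-voom 3.58.1, other scalings and filters, a replicate block and left-out libraries were alternatives. CPM per kb used the longest GENCODE M21 transcript (GRCm38), matched by RefSeq accession (1 by symbol) for 68 of 72 members. Every pair of libraries differed by more than sampling noise (chi-square per degree of freedom 2.43 to 18.1 within groups and 3.66 to 20.8 between them). BGN 5 gave 7.79 to 14.9 against the other BGN libraries, and Control 5 gave 11.5 to 18.1 against the other Control libraries. The members, gene lists and tests were chosen with earlier results of these data known. The loop rule of the stem-loop search and the fit without both libraries numbered 5 were chosen after seeing the data. Genes were named by a rule: the up to 5 members of highest mean CPM per class, those of smallest p in each direction, those at the edge of the filter, and a fixed set of histone, processing and cell cycle genes. Ccne2, H2aj, Lsm10, Lsm11, Cenpa, H2aw, H2bu2, H4f16, H3f4, Malat1, Neat1, Rn7sk, H1f5, H2bc7, H4c1 and the members at 0 fell outside it and were named after their values were seen.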

Additional observations from a re-analysis of the deposited data

Results flagged for a closer look

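In 3 cases a single BGN library lay further from the other 4 than Dixon's 95% limit for 5 values (a gap of 0.71 of the range) allows. Among the 64 groups of values examined chance gives about 3.2 such cases. H2bc6 was highest in BGN 5 at 2.92 CPM, with the other BGN libraries at 1.58 to 1.75. H2bc21 was lowest in BGN 1 at 4.46 CPM, with the others at 5.92 to 6.08. The summed level of the 20 histone genes that run past the stem-loop was highest in BGN 4 at 65.8 CPM, with the others at 55.7 to 58.1, and H1f2 was highest among BGN libraries there too, at 55.2 CPM.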

How the results depend on the processing

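The number of histone genes called by an adjusted p was 0 in every fit run. Over all genes the number called was 0, except for 3 without a filter on low counts. That fit took in 61 histone genes, 3 of them at an unadjusted p under 0.05, against 1549 of 26531 over all genes. The smallest of the members was that of H3c1 (edgeR, adjusted p = 0.734). H3c1 had only 6 counts, in BGN 1, BGN 2 and BGN 4, and was at 0 in every Control library. The members' median log2 fold change ranged from -0.14 to 0.05 when single libraries were left out.

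Estimates near 0 changed sign. With single libraries left out, the ranges were -0.064 to 0.055 for H1f2, -0.17 to 0.097 for H1f10, -0.25 to 0.11 for H2bc6, -0.27 to 0.38 for H2bc8, -0.16 to 0.11 for H4c9, -0.13 to 0.30 for H2ac6, -0.085 to 0.0064 for H2az1, -0.03 to 0.023 for H3f3a, -0.044 to 0.02 for Pcna and -0.036 to 0.043 for Top2a. With limma-voom the log2 fold change was 0.039 for H1f2, 0.035 for H1f10, 0.058 for H2bc8, 0.11 for H4c9, -0.17 for H2ac6 and -0.013 for Slbp. Without both libraries numbered 5, it was 0.071 for H1f2, 0.10 for H1f10, 0.21 for H4c9, -0.091 for H2ac6 and -0.014 for Slbp, and the smallest adjusted p of a member was 0.771 (edgeR, H2bc21). The cause was not tested. Other scalings moved the median of all genes by -0.0042 to 0.00089.

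No clear pairing by replicate number was seen, though a small shared effect could be missed. Same-numbered libraries deviated together with correlations of -0.0198 to 0.201, and only number 2 correlated best with its own. With the replicate number as a block, 0 genes were called, the members' median was -0.034, H2bc8 was at 0.015, and H1f0 had the smallest adjusted p of the members, 0.855 (edgeR). By CPM not divided by length, 8 of the first 10 histone genes by level stayed among them. Depth limits the 60 members outside the test, of which 49 had any count.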
